A study of Mus musculus with 32 samples.

Results

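The immune checkpoint ligands and receptors are a set of 10 genes, taken by symbol from a table of 55103 gene rows: the ligands Cd274, Pdcd1lg2, Cd80 and Cd86, the enzyme gene Ido1, and the lymphocyte receptors Pdcd1, Ctla4, Lag3, Havcr2 and Tigit. All 10 were in the table, and all 10 were among the 20474 genes with enough reads to be tested. Each symbol had a row of its own, so no member was left out.

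Bulk RNA sequencing was done on 32 tumours of KPC36, a mouse pancreatic cancer line whose genotype the labels do not give. Groups of 8 libraries were compared: tumours treated with carbon ions (carbon irradiated), untreated tumours of the carbon arm (carbon control), tumours treated with photons (photon irradiated) and untreated tumours of the photon arm (photon control). The dose, the host strain and the age of the mice are not in the labels used here, and the design text names days 4 and 7 after treatment without assigning a day to a library. Nothing in the labels says that the libraries of an arm came from separate animals, so p-values measure the spread between these samples. All 4 arms share the same tumour line and the same library preparation. The cells are labelled malignant, but the RNA came from whole tumour tissue.

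Checkpoint pathways are brakes on T cells. PD-L1 (Cd274) and PD-L2 (Pdcd1lg2) on tumour and myeloid cells engage PD-1 (Pdcd1) on activated T cells and dampen signalling from the antigen receptor, and interferon gamma is a known inducer of PD-L1. B7-1 (Cd80) and B7-2 (Cd86) on antigen-presenting cells give the co-stimulatory signal through Cd28, for which CTLA-4 (Ctla4) competes. LAG-3, TIM-3 (Havcr2) and TIGIT are further inhibitory receptors of T and NK cells, TIM-3 also being found on myeloid cells, and IDO1 starts the breakdown of tryptophan to kynurenine, which restrains T cells.

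Library totals ran from 13891863 to 71645903 estimated counts. Levels are in CPM, that is counts divided by the size of the library after scaling by the trimmed mean of M values (TMM). In the carbon arm, 4 controls and 3 irradiated libraries have titles that start with D and the other libraries of the study have titles that start with M; the meaning of the letters is not stated, and the carbon differences of the members are therefore also given within each letter. In bulk tissue, fewer cells of a type and less RNA per cell cannot be told apart.

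The levels of the 10 genes spanned a wide range. Per kilobase of merged exon, Tigit had the highest median over the 32 libraries, 18.7 CPM per kb, and stood above Havcr2, the next gene, in 32 of 32 libraries. Havcr2 followed at a median of 2.998 CPM per kb and Cd274 at 2.49 CPM per kb, with Havcr2 the higher of this pair in 20 of 32 libraries. Cd274 exceeded Cd86 in 28 of 32 libraries. Cd86 and Cd80 were at nearly the same level, with medians of 1.76 and 1.75 CPM per kb, and Cd86 was the higher in 19 of 32 libraries. Pdcd1lg2 (1.16 CPM per kb) and Lag3 (1.06 CPM per kb) likewise changed places between libraries, Pdcd1lg2 being the higher in 19 of 32. The lowest medians per length belonged to Pdcd1 at 0.449, Ido1 at 0.323 and Ctla4 at 0.263 CPM per kb. Neighbours in this order other than Tigit and Havcr2 overlapped in their ranges.

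Tigit was also high beside genes of T cells themselves. Its level per kb was above that of each of the 17 T cell genes tested in 32 of 32 libraries. The T cell gene with the highest median was Trbc1, a constant segment of the T cell receptor, at 2.004 CPM per kb, followed by Trac at 1.41 and Cd4 at 1.05 CPM per kb, while the CD3 subunit gene Cd3e had a median of 0.155 CPM per kb. Among the T cell genes, Cd3d was at 0 in 1 library, and Cd3g and Ubash3a were at 0 in 2 libraries each. The length used for Tigit is that of its single annotated transcript, 0.919 kb, and no other annotated gene overlaps it. Its lowest library still held 190 counts of Tigit. The table gives no read positions, so whether all reads counted for Tigit came from its transcript, or from lymphocytes, was not tested, and this limit holds for every Tigit value here.

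**Figure D1:**
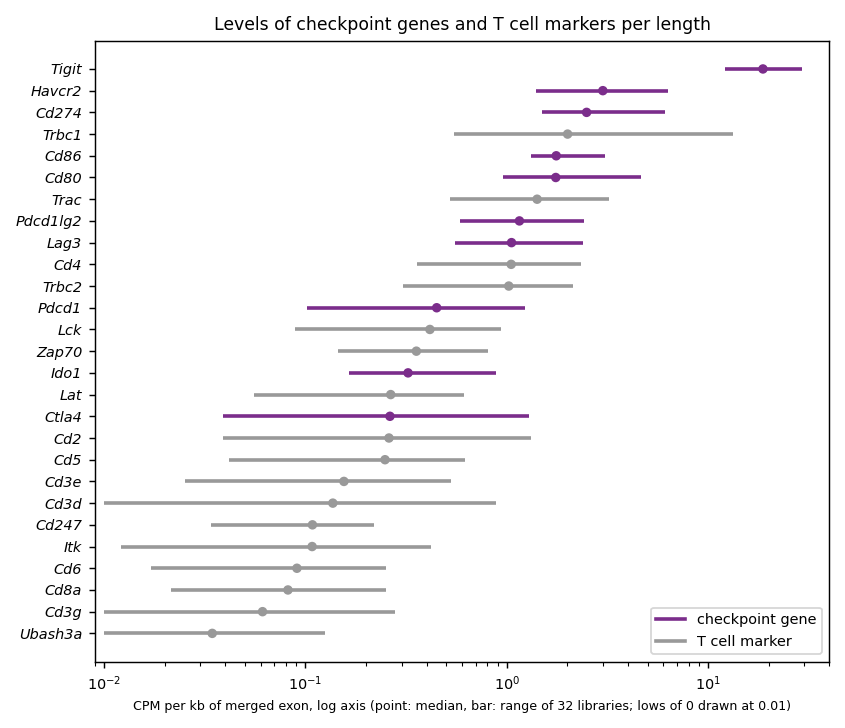
Level of each checkpoint gene (purple) and each tested T cell gene (grey) in CPM per kb of merged exon on a log axis, with the median as a point and the range over 32 libraries as a bar. The Tigit bar starts at 12.2 CPM per kb and lies to the right of all other checkpoint genes, whose medians run from 0.263 to 2.998.

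In the carbon arm, the largest differences lay among the ligands. Cd274 had a median of 12.7 CPM after carbon ions against 7.04 CPM in the controls, Pdcd1lg2 3.13 against 1.84 CPM, and Cd80 8.15 against 4.98 CPM, while the 5 receptors and Ido1 had log2 fold changes between -0.26 and 0.25. None of the 10 passed an adjusted p of 0.05 in edgeR's quasi-likelihood test, as was true of every gene tested (0%). DESeq2 also called 0 of the 10 (0.0522% of the genes to which it gave an adjusted p, the base of its adjusted shares below). At an unadjusted p under 0.05, 3 of 10 members passed in either tool, against 5.75% of all genes in edgeR and 4.45% in DESeq2, which was run without the filter on low counts and so tested 38319 genes. Values were higher after carbon ions in 8 of 10 members (51.5% of all genes), with a median log2 fold change of 0.18 over the members and 0.01 over all genes.

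Cd274 lies on chr19:29367455-29388095 (GRCm38, plus strand), where an antisense gene overlaps it. It ran from 5.41 to 11.1 CPM in the carbon controls and from 6.64 to 22.1 CPM in the carbon irradiated libraries. The arms overlapped, but 7 of 8 irradiated libraries were above the control median, a pattern met by 5.67% of all genes and by no other member, and 5 of 8 were above the highest control. The log2 fold change was 0.75 (SE 0.20, a 1.68-fold difference, adjusted p = 0.345 in edgeR). It was 0.70 among M-titled and 0.75 among D-titled libraries.

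Pdcd1lg2, the neighbour of Cd274 at chr19:29410919-29471161, had a lowest value of 1.15 and a highest of 2.78 CPM in the carbon controls, and 1.35 to 4.71 CPM after carbon ions. Its libraries were spread more widely after irradiation, with 5 of 8 above the highest control and the others within the control range. It had a log2 fold change of 0.73 (SE 0.26, adjusted p = 0.585 in edgeR), and it was 0.82 in M-titled and 0.62 in D-titled libraries. Cd80, at chr16:38455561-38496335, ran from 3.92 to 7.35 CPM in the controls and from 3.56 to 17.2 CPM after carbon ions. Its irradiated libraries lay on both sides of the controls, 4 of 8 above the highest and 2 of 8 below the lowest control. For Cd80 this gave a log2 fold change of 0.68 (SE 0.24, adjusted p = 0.590 in edgeR), with 0.84 in M-titled and 0.41 in D-titled libraries. No member had groups that did not overlap (0.0293% of all genes).

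Cd86 and Ido1 differed less in this arm. Cd86 (chr16:36603869-36666081) had medians of 7.18 CPM in the controls and 8.23 CPM in the irradiated libraries, and its log2 fold change was 0.23 (SE 0.15, adjusted p = 0.996 in edgeR). Ido1 (chr8:24584136-24597009) had medians of 0.687 and 0.630 CPM and ranges that overlapped nearly whole, from 0.451 to 1.61 and from 0.410 to 1.59 CPM. Its log2 fold change was -0.10 with a 95% interval from -0.69 to 0.49. Among M-titled libraries the values were 0.14 for Cd86 and -0.10 for Ido1, and among D-titled libraries 0.34 and -0.22. Of 15 macrophage and monocyte genes in the same libraries, 12 had values above 0 on the log2 fold scale (51.5% of all genes) with a median of 0.16, and 0 were called. Ly6c2, a monocyte gene, was at 2.46 (SE 0.87, adjusted p = 0.585 in edgeR), but its irradiated libraries had an SD above their mean, at 4.504 ± 8.83 CPM against 0.815 ± 0.502 CPM in the controls (SD, n = 8). Of 7 tested neutrophil genes 4 were above 0 and 3 below with a median of 0.06, and none was called, Retnlg being at 1.27 and Mmp9 at 0.60. The summed level of the macrophage and monocyte genes ran from 1250.1 to 1868 CPM in the carbon controls and from 1303 to 2285 CPM after carbon ions. With the macrophage score as a covariate, the carbon difference of Cd274 was 0.68, that of Pdcd1lg2 0.68 and that of Cd80 0.48 on the log2 scale.

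The receptors of the carbon arm showed no such separation. Pdcd1 had medians of 0.901 CPM in the controls and 0.892 CPM after carbon ions, Lag3 2.37 and 2.52 CPM, Tigit 15.4 and 16.4 CPM. Havcr2 was more scattered after carbon ions, from 4.05 to 14.9 CPM around a median of 10.4 CPM, against 5.81 to 11.8 CPM around 7.62 CPM in the controls. Ctla4 spanned 0.0908 to 1.76 CPM in the controls and 0.146 to 1.77 CPM after carbon ions. The 95% intervals of the log2 fold change reached from -0.57 to 0.78 for Pdcd1, from -1.22 to 0.70 for Ctla4, from -0.39 to 0.64 for Lag3, from -0.32 to 0.82 for Havcr2 and from -0.20 to 0.42 for Tigit. Within D-titled libraries alone the signs of Pdcd1 (-0.10), Havcr2 (-0.15), Tigit (-0.06) and Ctla4 (0.06) were opposite to those over the whole arm, and Lag3 was at 0.10. Among M-titled libraries the values were 0.24 for Pdcd1, 0.52 for Havcr2, 0.23 for Tigit, -0.46 for Ctla4 and 0.18 for Lag3.

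In the photon arm, the largest differences were those of the receptors Ctla4 and Pdcd1, with lower values after irradiation. Ctla4 had a median of 0.547 CPM after photons against 1.53 CPM in the controls, Pdcd1 0.701 against 1.28 CPM, and Tigit 17.02 against 22.1 CPM. None of the 10 members passed an adjusted p of 0.05 in edgeR, a threshold that 3.81% of all genes passed, and DESeq2 called 2, Ctla4 and Pdcd1, against a share of 7.73% of genes. At an unadjusted p under 0.05 the count was 3 of 10 in either tool, against 21.5% of all genes in edgeR and 13.4% in DESeq2. The log2 fold change was below 0 for 8 of 10 members (50.1% of all genes) and for 5 of 5 receptors, with a median of -0.32 over the members and -0.40 over the receptors.

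Ctla4 is at chr1:60887000-60915832 on the plus strand and has a ribosomal protein pseudogene within it. It ran from 0.407 to 2.99 CPM in the photon controls and from 0.318 to 1.05 CPM after photons. All 8 irradiated libraries were below the control median, and 5 of 8 controls were above the highest irradiated library. Ctla4 had a log2 fold change of -1.52 (SE 0.47, adjusted p = 0.0597 in edgeR). The call depended on the setting: the adjusted p was 0.0239 in DESeq2, 0.0348 with the photon libraries alone and 0.0297 with M-titled libraries, and it was between 0.0305 and 0.0498 when carbon control 1, carbon irradiated 1 or 2, or photon control 2, 4 or 6 was left out. The counts behind these values were low, from 8 to 122 per photon library.

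Pdcd1 (chr1:94038305-94052553, minus strand) ran from 0.475 to 2.38 CPM in the photon controls and from 0.196 to 1.08 CPM after photons. Again all 8 irradiated libraries were below the control median, and 6 of 8 controls were above the highest irradiated one. Pdcd1 had a log2 fold change of -0.996 (SE 0.33, adjusted p = 0.0777 in edgeR, 0.0393 in DESeq2, 0.0439 without photon control 4). Tigit (chr16:43648867-43664146, minus strand) ran from 15.4 to 26.4 CPM in the photon controls, where 7 of 8 libraries were above the highest irradiated one, and from 12.4 to 19.2 CPM after photons. Its difference was smaller but its spread was narrow, with a log2 fold change of -0.37 (SE 0.15, adjusted p = 0.148 in edgeR). Fibroblast genes were lower in the same libraries, 8 of 8 below 0 with a median log2 fold change of -0.52 and 2 called, Pdgfrb (-0.52, adjusted p = 0.0265 in edgeR) and Fap (-0.59, adjusted p = 0.0322). Their summed level ran from 12556 to 26794 CPM in the photon controls and from 9133 to 16919 CPM after photons, and their part in the value of Tigit was not tested.

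Lag3 and Havcr2 overlapped more in the photon arm. Lag3 (chr6:124904361-124911705) had medians of 2.24 CPM in the controls and 1.88 CPM after photons, with the controls reaching 5.07 and the irradiated libraries 2.86 CPM. Havcr2 (chr11:46454935-46481255) had medians of 8.74 and 7.06 CPM, and the highest library of either group was near 17 CPM, at 17.2 and 16.8. The log2 fold changes were -0.40 (SE 0.25, adjusted p = 0.379 in edgeR) for Lag3 and -0.22 (SE 0.28, adjusted p = 0.694) for Havcr2. Single libraries moved both: without photon control 4 they were -0.19 and -0.02, and Havcr2 was at -0.11, -0.46 or -0.13 without photon irradiated 1, 3 or 7. Above the control median were 3 of 8 irradiated libraries for Havcr2 and 2 of 8 for Lag3.

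Of the ligands, Cd80 and Cd86 were below the control median in all 8 photon irradiated libraries, as were Ctla4, Pdcd1 and Tigit, which makes 5 of 10 members against 9.63% of all genes. Cd86 was nearly uniform after photons, from 4.84 to 6.49 CPM, while its controls ran from 5.02 to 8.97 CPM. Cd80 ran from 3.94 to 7.31 CPM after photons and from 4.16 to 10.5 CPM in the controls. The log2 fold changes were -0.26 (adjusted p = 0.327) for Cd86 and -0.25 (adjusted p = 0.588) for Cd80 in edgeR, and -0.38 (adjusted p = 0.410) for Pdcd1lg2, whose medians were 2.998 CPM in the controls and 1.95 CPM after photons. For Pdcd1lg2 it was -0.03 with the T cell score and -0.59 with the muscle score as a covariate, and -0.25 without photon control replicate 3. For Cd80 it ran from -0.34 to -0.16 with 1 library left out.

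Cd274 went the other way. All 8 photon irradiated libraries were above its control median of 8.06 CPM, a pattern of 1 member and of 6.93% of all genes. Their values ran from 8.78 to 16.2 CPM against 6.37 to 14.6 CPM in the controls, and 1 library stood apart at the top of each group. The log2 fold change was 0.21 (SE 0.20, adjusted p = 0.591 in edgeR), and leaving out the top library of a group moved it either way, to 0.10 (photon irradiated 5) or to 0.35 (photon control 3). Ido1 had medians of 0.609 CPM in the controls and 0.568 CPM after photons and a log2 fold change of 0.06 with a 95% interval from -0.53 to 0.66. No member had photon groups that did not overlap (0.474% of all genes).

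**Figure D2:**
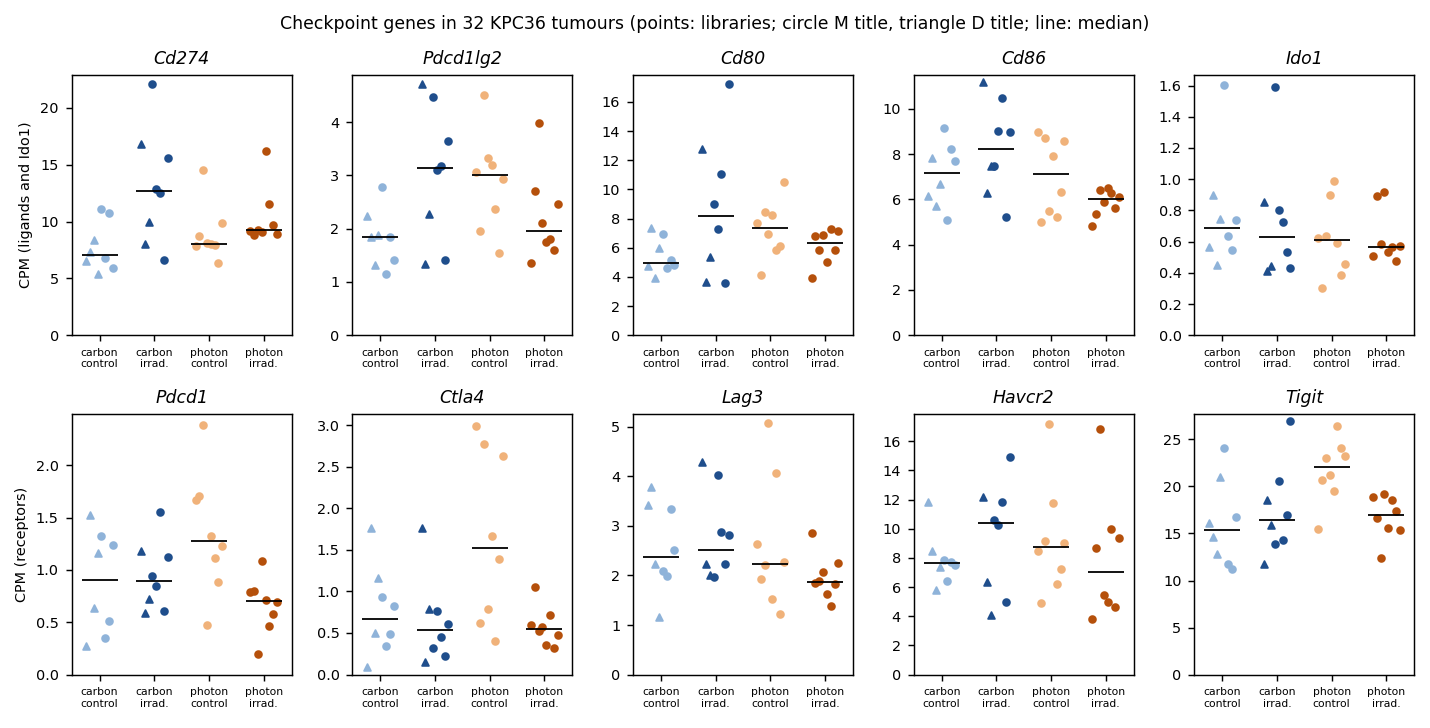
CPM of each gene in each of 32 libraries, by group; circles are M-titled and triangles D-titled libraries, lines are group medians, and each panel has its own axis from 0. Cd274 is higher in most carbon irradiated libraries, with 5 of 8 above the highest control, and Ctla4 and Pdcd1 lie low and close together after photons, with all 8 libraries below the control median.

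The beams were also compared through the difference of the carbon effect and the photon effect, each taken against the controls of its own arm. It was above 0 for 9 of 10 members (52% of all genes), with a median of 0.53 on the log2 scale against 0.02 over all genes. None passed an adjusted p of 0.05 in edgeR (0.0781% of all genes) or in DESeq2 (1.54%). At an unadjusted p under 0.05, 5 of 10 passed in either tool, against 13% of all genes in edgeR and 8.48% in DESeq2. These were Pdcd1lg2 (1.11, SE 0.37, adjusted p = 0.194), Cd80 (0.93, SE 0.34, adjusted p = 0.245), Pdcd1 (1.10, SE 0.47, adjusted p = 0.315), Cd86 (0.49, SE 0.22, adjusted p = 0.336) and Tigit (0.48, SE 0.22, adjusted p = 0.336). Cd274, with 0.75 after carbon ions and 0.21 after photons, had a difference of 0.54 with a 95% interval from -0.05 to 1.12. Ctla4 had a difference of 1.26 with an interval from -0.09 to 2.61, and from 0.82 to 1.53 with 1 library left out. Ido1 was the exception in sign at -0.17. The difference of effects also holds how the untreated tumours of the arms differed. Carbon less photon controls were at -0.44 for Tigit and -1.14 for Ctla4, and the irradiated groups at 0.05 and 0.12. For Pdcd1 these values were -0.64 and 0.46, and for Cd86 0.004 and 0.49. Beam and arm cannot be told apart here.

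**Figure D3:**
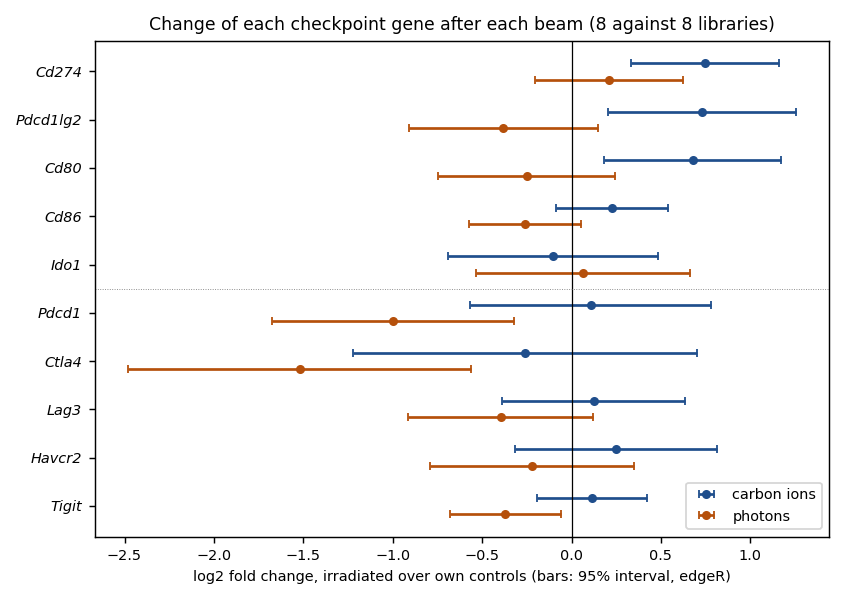
Log2 fold change of each gene after carbon ions (blue) and after photons (orange), each against its own controls, with 95% intervals from edgeR; ligands and Ido1 are above the dotted line and receptors below it. The carbon intervals of Cd274, Pdcd1lg2 and Cd80 lie above 0 and the photon intervals of Pdcd1, Ctla4 and Tigit below 0, before adjustment for the number of genes tested.

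Averaged over the beams, Cd274 was the member with the smallest p, at a mean log2 fold change of 0.48 (SE 0.14, adjusted p = 0.103 in edgeR). Ctla4 was next at -0.89 (SE 0.33, adjusted p = 0.195). Of all genes, 0.772% passed the adjusted threshold for this mean effect, and none of the members did in edgeR. DESeq2 called 1, Cd274, with an adjusted p of 0.0454, against a share of 1.84% of genes. At an unadjusted p under 0.05 it was 2 of 10 in either tool, against 14.3% of all genes in edgeR and 9.65% in DESeq2.

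The untreated tumours of the arms differed in many genes, but no member passed that test in edgeR. The log2 difference of the carbon controls from the photon controls was below 0 for 8 of 10 members (53.2% of all genes), with a median log2 difference of -0.32. The adjusted threshold was passed by 9.14% of all genes in edgeR, and DESeq2 called 1 member, Tigit, at 0.0478, near its share of 11.1% of genes. At an unadjusted p under 0.05 the count was 3 of 10 in edgeR, against 23.1% of all genes, and 4 in DESeq2, against 14%. Tigit had medians of 15.4 CPM in the carbon controls and 22.1 CPM in the photon controls, a log2 difference of -0.44 (SE 0.15, adjusted p = 0.0660 in edgeR). Its adjusted p was 0.0404 with upper-quartile scaling, and 0.0492, 0.0167 or 0.0488 without carbon control 4, carbon control 5 or photon control 1. Fibroblast genes differed in the same direction, 8 of 8 below 0 with a median of -0.59 and 2 called, Pdgfra (-0.77, adjusted p = 0.0257 in edgeR) and Col1a2 (-0.59, adjusted p = 0.0479), with a summed level from 6126 to 16488 CPM in the carbon controls. All 8 carbon controls of Pdcd1lg2 were below the median of the photon controls, the only such member (8.36% of all genes), with a log2 difference of -0.66 (SE 0.26, adjusted p = 0.106). Ctla4 differed by -1.14 (SE 0.46, adjusted p = 0.121). No member had control groups that did not overlap (1.31% of all genes).

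Among the irradiated tumours, the fitted log2 difference of carbon ions from photons was above 0 for all 10 members (51.1% of all genes), with a median log2 difference of 0.39 against 0.01 over all genes. For Tigit (0.05) and Ctla4 (0.12) it was near 0, and their medians were the lower ones after carbon ions, at 16.4 against 17.02 CPM and 0.531 against 0.547 CPM. None passed the adjusted threshold in edgeR (5.08% of all genes), and DESeq2 called 1, Cd86, at 0.0228, near its share of 10.7% of genes. At an unadjusted p under 0.05 it was 2 of 10 in edgeR, against 25.2% of all genes, and 3 in DESeq2, against 15.5%. Cd86 had 7 of 8 carbon irradiated libraries above the photon irradiated median and 6 of 8 above the highest photon irradiated library, at a log2 difference of 0.49 (SE 0.15, adjusted p = 0.0531 in edgeR). It passed in 7 of 32 fits with 1 library left out, with an adjusted p down to 0.0326 without carbon irradiated replicate 3, and the others without carbon irradiated 7, carbon control 6 or photon control 2, 3, 4 or 6. Myeloid genes were higher in the same libraries. Of 15 macrophage and monocyte genes, 15 had values above 0 with a median log2 difference of 0.62, and 6 were called, among them Lyz2 (0.91, adjusted p = 0.0130 in edgeR), Fcgr3 (0.78, adjusted p = 0.0141) and C1qc (0.65, adjusted p = 0.0193). Their summed level ran from 1303 to 2285 CPM after carbon ions and from 661 to 1388 CPM after photons. Of 7 tested neutrophil genes, 7 were above 0 with a median of 0.55, and 3 were called, their summed level running from 91.2 to 312 CPM and from 56.3 to 163 CPM. With the macrophage score as a covariate the log2 difference of Cd86 was 0.24 (adjusted p = 0.475). Lag3 was above the photon irradiated median in all 8 carbon irradiated libraries, 1 member against 4.27% of all genes, with a log2 difference of 0.50 (SE 0.25, adjusted p = 0.214). No member had irradiated groups that did not overlap (0.161% of all genes). These last comparisons share their libraries with the effects of the beams above and are no separate evidence.

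Genes of T cells were mostly lower beside the receptors in the photon arm. Of 17 tested T cell genes (Cd8b1 was not tested), 16 had a log2 fold change below 0 after photons (50.1% of all genes), with a median of -0.80. Cd2 (-1.65, adjusted p = 0.0265) and Cd3d (-1.99, adjusted p = 0.0413) fell, and Cd8a, the co-receptor of cytotoxic T cells, rose (1.23, adjusted p = 0.0453), in edgeR. All 3 were low, with medians over the 32 libraries of 0.453, 0.248 and 0.298 CPM. Of 10 tested cytotoxic and NK cell genes, 5 were above 0 and 5 below after photons, and 0 were called. Whether the Cd8a reads came from cytotoxic T cells was not tested. With 1 library left out, Cd2, Cd3d and Cd8a passed in 25, 21 and 20 of 32 fits, with adjusted p in edgeR up to 0.0909, 0.112 and 0.0973. The libraries whose loss ended a call were photon libraries, with carbon control 3 as the exception for Cd8a. Of the other settings, Cd2 passed in 6 of 9, Cd3d in 4 of 8 and Cd8a in 5 of 9. The summed level of the 17 genes ran from 15.6 to 29.1 CPM in the photon controls and from 11.2 to 17.6 CPM after photons, and from 13.7 to 31.9 and from 11.1 to 24.1 CPM in the carbon controls and carbon irradiated libraries. With the T cell score, the mean log2 CPM of these genes, as a covariate, the photon difference of Ctla4 went from -1.52 to -0.09 and that of Pdcd1 from -0.996 to -0.25, while that of Tigit was -0.44 and that of Cd274 0.50 (adjusted p = 0.202). With the same covariate the photon differences of Cd80 (0.20) and Cd86 (0.08) turned positive. Whether the number of T cells accounts for the receptor values was not tested.

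Within the groups, 5 of 10 members were related to the T cell score from library to library. The share of all genes with such a relation was not computed, for this score or the others below. The counts of members therefore have no background to be set against. Group means were taken off before correlating, and p-values came from 100000 permutations within groups, adjusted over 60 relations of 10 members with 6 scores. By Pearson's r over all libraries Ctla4 ranked first (r = 0.81, rho = 0.72, adjusted permutation p = 0.0002 and 0.0012), and r was 0.72 without the 2 libraries farthest from the median score. Within single groups, its r ranged from 0.10 to 0.92. Cd86, which ranked above Ctla4 by rho (r = 0.71, rho = 0.77, adjusted permutation p = 0.00084 and 0.0003, r = 0.73 without 2 libraries), Pdcd1 (r = 0.67, rho = 0.70, adjusted permutation p = 0.0003 for both, r = 0.59 without 2) and Cd80 (r = 0.60, rho = 0.60, adjusted permutation p = 0.00485 and 0.0052, r = 0.56 without 2) came next. Pdcd1lg2 was weaker (r = 0.50, rho = 0.50, adjusted permutation p = 0.0245 and 0.0248, r = 0.55 without 2), and Cd274 did not pass (r = 0.45, adjusted permutation p = 0.0753).

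The other receptors showed no such relation. Tigit had r = -0.19 and rho = -0.26 with the T cell score (adjusted permutation p = 0.583 and 0.358), Havcr2 r = 0.15 (0.629 as adjusted permutation p) and Lag3 r = 0.00 (adjusted permutation p = 0.996), with r of Lag3 between -0.49 and 0.63 in single groups. With the fibroblast score, Lag3 passed by rho (-0.51, adjusted permutation p = 0.0239) and not by r (-0.43, adjusted permutation p = 0.0769, r = -0.44 without 2), with r from -0.57 to -0.17 in single groups. Tigit had r = 0.42 and rho = 0.31 with that score (adjusted permutation p = 0.0769 and 0.233). The macrophage score was related to Pdcd1 (r = 0.59, rho = 0.55, adjusted permutation p = 0.0018 and 0.0052), Cd80 (r = 0.55, rho = 0.52, adjusted permutation p = 0.0055 and 0.0141), Ctla4 (r = 0.51, rho = 0.56, adjusted permutation p = 0.00711 and 0.0054) and Cd86 (r = 0.51, rho = 0.55, adjusted permutation p = 0.0113 and 0.0054), and without 2 libraries these r were 0.52, 0.51, 0.59 and 0.61. For Havcr2, a receptor that myeloid cells also carry, r was 0.01, and for Tigit 0.17.

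Other scores were related to members as well. The dendritic cell score was related to Ctla4 (r = 0.75, rho = 0.71, adjusted permutation p = 0.0002 and 0.0012), Cd80 (r = 0.63, rho = 0.63, adjusted permutation p = 0.0002 and 0.0018), Cd86 (r = 0.63, rho = 0.62, adjusted permutation p = 0.0038 and 0.00468) and Pdcd1 (r = 0.57, rho = 0.58, adjusted permutation p = 0.00462 and 0.00468), with r of 0.75, 0.64, 0.59 and 0.55 without 2 libraries. Pdcd1lg2 passed with it by r (0.44, adjusted permutation p = 0.0481, r = 0.38 without 2) and not by rho (0.41, adjusted permutation p = 0.0761). The score of the interferon gamma axis was related to Cd80 (r = 0.59, rho = 0.65, adjusted permutation p = 0.0016 and 0.0018), Pdcd1 (r = 0.53, rho = 0.59, adjusted permutation p = 0.00171 and 0.00156) and Cd86 (r = 0.44, rho = 0.54, adjusted permutation p = 0.00994 and 0.00468), with r of 0.58, 0.51 and 0.51 without 2 libraries. For Tigit and the dendritic cell score r was 0.00, and for Havcr2 it was 0.17.

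**Figure D4:**
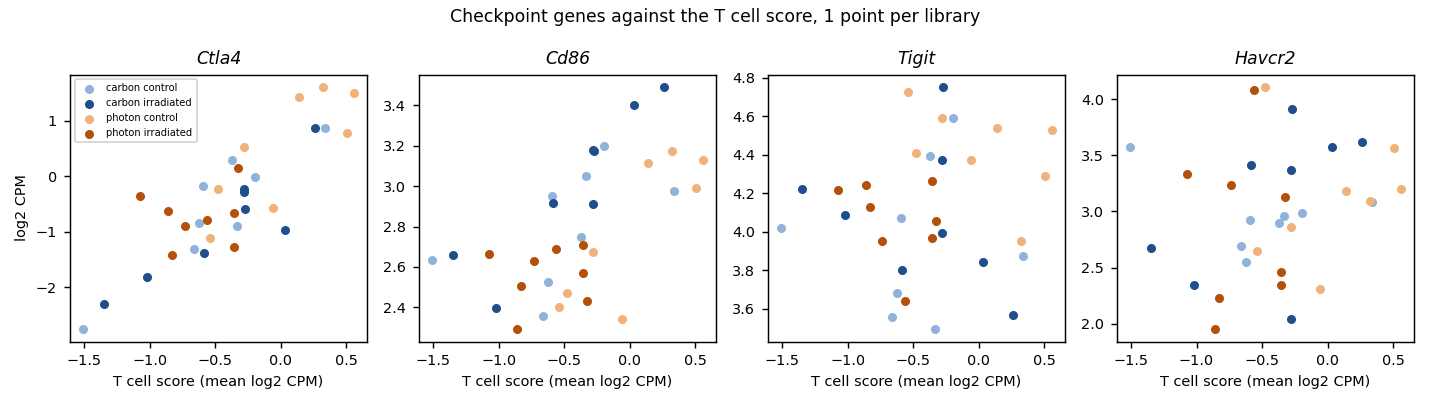
Log2 CPM of Ctla4, Cd86, Tigit and Havcr2 against the T cell score (mean log2 CPM of 17 genes), 1 point per library, coloured by group. Ctla4 and Cd86 rise along the score (r = 0.81 and 0.71 with group means taken off), and Tigit and Havcr2 form no line (r = -0.19 and 0.15).

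The promoters of Ctla4 and Pdcd1, which followed the T cell score, and of Tigit and Havcr2, which did not, are shown side by side so that their letters can be compared. Each is the 250 bases before the RefSeq start of the gene, 5′ to 3′ on the gene's strand, from the RefSeq table of GRCm38.p6, which held 7 of the 10 members. The windows are chr1:60908775-60909024 (plus), chr1:94052554-94052803 (minus), chr16:43664185-43664434 (minus) and chr11:46454681-46454930 (plus). Capitals mark a match to the core letters bound by NFAT (TGGAAA) or to the AP-1 site (TGANTCA), on either strand.
Ctla4: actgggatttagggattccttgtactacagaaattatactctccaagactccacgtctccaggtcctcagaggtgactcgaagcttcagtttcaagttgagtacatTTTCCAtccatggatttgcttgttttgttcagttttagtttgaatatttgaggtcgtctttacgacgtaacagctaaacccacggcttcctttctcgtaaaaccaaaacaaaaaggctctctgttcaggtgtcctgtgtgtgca
Pdcd1: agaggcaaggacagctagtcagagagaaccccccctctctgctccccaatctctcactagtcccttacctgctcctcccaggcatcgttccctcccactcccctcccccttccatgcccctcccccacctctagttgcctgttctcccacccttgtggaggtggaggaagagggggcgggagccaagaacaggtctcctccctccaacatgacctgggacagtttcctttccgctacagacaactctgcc
Tigit: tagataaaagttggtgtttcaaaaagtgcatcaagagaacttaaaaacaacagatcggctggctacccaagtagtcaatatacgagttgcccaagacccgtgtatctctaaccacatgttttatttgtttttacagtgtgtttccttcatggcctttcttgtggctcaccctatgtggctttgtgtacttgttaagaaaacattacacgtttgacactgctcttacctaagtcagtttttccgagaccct
Havcr2: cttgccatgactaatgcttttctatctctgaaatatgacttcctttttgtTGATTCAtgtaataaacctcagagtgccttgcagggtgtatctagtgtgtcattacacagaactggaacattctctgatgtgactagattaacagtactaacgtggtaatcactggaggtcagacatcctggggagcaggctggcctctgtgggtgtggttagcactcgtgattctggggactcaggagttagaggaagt

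The Ctla4 window holds 1 match to the NFAT core letters, 144 bases before the start and on the other strand, where it reads TTTCCA. The Havcr2 window holds 1 match to the AP-1 letters, 200 bases before the start. The windows of Pdcd1 and Tigit hold neither. Of 32851 RefSeq promoter windows of the same length, 18.6% held the NFAT letters and 6.75% the AP-1 letters, so an NFAT match in a single window is common and an AP-1 match less so. Searched the same way on both strands, the core of the interferon-stimulated response element (in 2.98% of windows), the gamma-activated site (TTCNNNGAA, 7.02%) and the NF-kB site (1.41%) had no match in any of the 7 member windows, Cd274 and Pdcd1lg2 included. With shares this low, the lack of a match in 7 windows says little. Cd80 had an AP-1 match 42 bases before its start. A match is a run of letters and not a shown binding site. The RefSeq starts of Ctla4 and Cd80 lie inside the longer GENCODE genes, and the Cd274 window overlaps an exon of Plgrkt.

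The genes most like each member over the 32 libraries differed from member to member. Among 13324 genes of sufficient level, after group means were taken off, Ctla4 was most like Foxp3 (r = 0.81), the transcription factor of regulatory T cells, followed by P2ry10 and Klrk1. Pdcd1 was most like Lck (r = 0.72), the kinase of the T cell receptor, then Slamf7 and Gna15. Tigit was most like Twist1 (r = 0.86), a mesenchymal transcription factor, then Arf4 and Rab34, with no T cell gene among its top 3. Havcr2 was most like Bcl2l15 (r = 0.87), Dhrs9 and Glrp1, and Lag3 most like Sec1 (r = 0.79), Ltbp3 and Mbd1. Of the ligands, Cd274 had Fcrlb and Pfkp among its 3 most like genes (r = 0.82 for both), and Cd80 was most like Nlrp3 (r = 0.84), the inflammasome sensor, then Ass1 and Trem1. Cd86 was most like Gpr132 (r = 0.80), Strip2 and Bcl2a1d (a member of a family of near-identical copies, whose reads the counting may split), and Pdcd1lg2 most like Abcc1 (r = 0.83), Ptpn5 and Blcap. Ido1 had the weakest likeness, with Upp1 at r = 0.66, then Uso1 and Ecm1. These are descriptions over libraries that share their depth and tissue makeup.

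Among the members themselves, 3 of the 6 highest correlations joined ligands and 3 joined a ligand with a receptor. Cd80 and Cd86 were at r = 0.75, Pdcd1lg2 and Havcr2 at r = 0.74 and Pdcd1lg2 and Cd80 at r = 0.73, again as descriptions. Cd274 and Pdcd1lg2, which are neighbours on chromosome 19, had r = 0.59, from -0.33 to 0.96 in single groups. The pair with the lowest value was Pdcd1 and Havcr2, at r = -0.21.

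Beyond the 10 genes, 3 other checkpoint and co-stimulation genes passed the test after photons. Of 34 such genes, 30 were tested (Cd96, Fgl1, Cd70 and Cd40lg were not). In edgeR 3 fell and 0 rose after photons, where 3.81% of all genes passed in either direction. Values were below 0 for 24 of 30 (50.1% of all genes), with a median log2 fold change of -0.32. Tnfsf18, which encodes the ligand of GITR, fell by 2.72 on the log2 scale (SE 0.52, adjusted p = 0.00528), with control libraries at a mean of 2.65 ± 2.46 CPM and irradiated ones at 0.388 ± 0.232 CPM (SD, n = 8). Btla, an inhibitory receptor of lymphocytes, fell by 1.32 (SE 0.28, adjusted p = 0.00990), from 2.20 ± 0.827 to 0.873 ± 0.354 CPM. Vsir, which encodes the inhibitory ligand VISTA, fell by 0.55 (SE 0.15, adjusted p = 0.0306), from 52.4 ± 11.01 to 35.6 ± 9.16 CPM. Tnfsf18 and Btla passed in 32 of 32 fits with 1 library left out and Vsir in 24 of 32, not passing without photon control 3, 5 or 8 or photon irradiated 1, 2, 3, 6 or 7 (adjusted p up to 0.0856). With the T cell score as a covariate none of the 3 passed, with log2 fold changes of -1.56, -0.97 and -0.34 (adjusted p = 0.0969, 0.0984 and 0.211). Of 9 other settings Tnfsf18 passed in 7, Btla in 6 and Vsir in 4, and the log2 fold change of Btla was at or below -0.97 in each. After carbon ions, 0 of the 30 passed in edgeR, the smallest p belonging to Tnfrsf9 (0.85, adjusted p = 0.453) and Btla (-0.89, adjusted p = 0.466). Among M-titled libraries these were at 1.04 and -0.88, among D-titled ones at 0.47 and -0.86. Btla passed for the mean effect of the beams (-1.10, SE 0.20, adjusted p = 0.00496), and Tnfsf18 (-1.42, SE 0.35, adjusted p = 0.0456) passed as well, but in only 9 of 32 fits with 1 library left out. In the carbon arm Tnfsf18 had nearly equal means, 0.998 ± 0.639 CPM in the controls and 0.923 ± 0.578 CPM after carbon ions (SD, n = 8).

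Of 13 genes of kynurenine and other metabolic checkpoints, all tested, 2 fell and 0 rose after photons (3.81% of all genes passed in either direction). Kmo, the next oxygenase of the pathway that IDO1 starts, fell by 1.14 on the log2 scale (SE 0.27, adjusted p = 0.0192), and Entpd1, the ectonucleotidase CD39, fell by 0.49 (SE 0.12, adjusted p = 0.0253). With 1 library left out, Kmo did not pass without photon control 5 (0.0520), and Entpd1 not without photon control 3 or 8 or photon irradiated 1 or 7 (up to 0.0801). With the T cell score as a covariate neither passed, with log2 fold changes of -0.69 and -0.35 (adjusted p = 0.186 and 0.167). After carbon ions 0 of 13 passed in edgeR, with Nt5e, the ectonucleotidase CD73, at 0.38 (SE 0.14, adjusted p = 0.628), or 0.63 among M-titled and 0.14 among D-titled libraries.

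Of 16 genes of the interferon gamma axis, 15 were tested and Ifng itself was not. After photons 2 rose and 1 fell (3.81% of all genes passed in either direction). The chemokine genes Cxcl10 (2.005, SE 0.45, adjusted p = 0.0135) and Cxcl11 (1.46, SE 0.40, adjusted p = 0.0358) rose in edgeR. Ciita, the activator of MHC class II genes, fell by 0.73 (SE 0.16, adjusted p = 0.0129). Cxcl10 went from 1.38 ± 0.474 to 5.53 ± 5.13 CPM, a wide spread after photons (SD, n = 8). Cxcl11 was low, at 0.159 ± 0.0750 and 0.423 ± 0.255 CPM, and is annotated as a polymorphic pseudogene. Art3 overlaps both chemokine genes. Cxcl10 and Ciita passed in 32 of 32 fits with 1 library left out, Cxcl11 in 23, not passing without photon control 1, 3, 6 or 8 or photon irradiated 2, 3, 4, 7 or 8 (adjusted p up to 0.0899). Of the other settings, Cxcl10 passed in 9 of 9, Cxcl11 in 5 of 8 and Ciita in 6 of 9, Ciita not passing with the T cell, macrophage or muscle score as a covariate (-0.50, -0.61 and -0.67 on the log2 scale, adjusted p = 0.114, 0.0949 and 0.0543). After carbon ions 0 of 15 passed in edgeR, with Cxcl10 at 1.84 (adjusted p = 0.314) and Gbp2 at 0.86 (adjusted p = 0.314), and 14 of 15 had values above 0 (51.5% of all genes). Cxcl10 passed in 1 of 10 other settings, DESeq2 (adjusted p = 0.0255), and was at 2.06 among M-titled and 1.54 among D-titled libraries, Gbp2 at 0.97 and 0.68. For the mean effect of the beams, Cxcl10 (1.92), Gbp2 (0.75) and Cxcl11 (1.19) rose and Ciita (-0.63) fell, Cxcl11 passing in 23 of 32 fits with 1 library left out and the others in 32. Cd274 and Ido1, which interferon gamma can induce, were not among the genes called in either arm.

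Of 16 regulators of T cell activation and exhaustion, 14 were tested. After photons Tox, a transcription factor of exhausted T cells, rose by 0.83 (SE 0.16, adjusted p = 0.00528), from 7.99 ± 1.99 to 14.2 ± 1.74 CPM (SD, n = 8), and Cd101 fell by 0.98 (SE 0.18, adjusted p = 0.00404). Tox was at 15.96 ± 3.04 CPM in the carbon controls and 16.07 ± 3.89 CPM after carbon ions, and the carbon controls were above the photon controls by 0.996 on the log2 scale (adjusted p = 0.000403 in edgeR). The T cell gene Cd3e had a median of 0.634 CPM over the 32 libraries, and whether the Tox reads came from T cells was not tested. Both photon calls passed in 32 of 32 fits with 1 library left out and in 9 of 9 other settings. Of 10 regulatory T cell genes, 8 were tested and none passed after either beam in edgeR, with Il2ra at -1.09 (adjusted p = 0.0791) and Ccr8 at -1.61 (adjusted p = 0.0885) after photons. These calls depended on the setting: Il2ra passed in DESeq2 (adjusted p = 0.0397), with the photon libraries alone (0.0494), with M-titled libraries (0.0472) and without carbon irradiated replicate 2 (0.0461), and Ccr8 passed with M-titled libraries (0.0477). With the T cell score as a covariate they were at 0.02 and -0.24. Other cell types also had lower values in the photon irradiated tumours. Of their genes, 2 of 15 for macrophages, 3 of 14 for dendritic cells and 3 of 7 tested for neutrophils fell. Of all genes, 3.81% passed in either direction. The summed macrophage level ran from 1021 to 2031 CPM in the photon controls and from 661 to 1388 CPM after photons. The part of these cell types in the values of Cd80, Cd86 and Pdcd1lg2 was not tested beyond the macrophage covariate. With it the photon difference of Cd80 was 0.06, and those of Cd86 and Pdcd1lg2 kept their negative sign. The skeletal muscle score, a measure of muscle in the tumour piece, had a mean of 3.81 in the photon controls and 0.30 after photons, and with it as a covariate the photon difference of Ctla4 was -1.20 and that of Cd274 0.07.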

How the data were processed

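The authors deposited a table of estimated counts per gene symbol for 32 libraries; its unit is the expected count, the kind of value that RSEM gives. Per the submitters' processing notes, RSEM 1.3.3 was used together with Trimmomatic 0.32, FastQC 0.12.0 and the build mm10, with no role or order named. Annotation and strand handling are not given in the sources used here, so reads of Cd274 and Pdcd1lg2 and of their antisense neighbours may not be separated. Positions and lengths came from GENCODE M21 on GRCm38, the same build as mm10.

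The tests were designed for whole counts, so the estimated counts were rounded (totals changed by at most 0.00403%), filtered with filterByExpr (minimum count 10), scaled by TMM and fitted with edgeR 4.0.16 in R 4.3.3 as 1 quasi-likelihood model over 32 libraries, with 6 contrasts. P-values were adjusted by Benjamini-Hochberg over all 20474 genes; the model was tested on simulated data. Standard errors came from the F statistic, and log2 CPM used a prior count of 2. Alternatives were DESeq2 1.42.0, RLE and upper-quartile scaling, no filter, subsets of libraries and cell type scores as covariates; the closing section gives their effect.

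The members and the 15 lists of 200 other genes were chosen with earlier results of these data known. The text names all members; of a list, up to 4 genes with the smallest p among those with an adjusted p under 0.05, or otherwise the 2 with the smallest p; and for each member the 3 genes with the highest correlation; 1 gene that these rules select is not reported here. Lists of B cells, cytotoxic cells, epithelial cells, endothelial cells and fibroblasts had 0, 0, 0, 2 and 2 genes lower after photons.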

Additional observations from a re-analysis of the deposited data

Results flagged for a closer look

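In the photon irradiated group, Cd274 stood at 16.2 CPM (547 counts) in replicate 5, far from the other 7 libraries, of which the next was at 11.6 CPM. On the log2 CPM scale the gap was a share of 0.548 of the range of the group, above Dixon's 95% critical value of 0.526 for 8 samples. Of 40 combinations of gene and group examined on this scale, 1 passed that value, and chance passes it in about 1 of 20. On the linear CPM scale 6 of 40 passed, each with a single high library: Cd274 in both photon groups (gap shares of 0.57 in the controls and 0.622 after photons), Ido1 in both carbon groups (0.612 and 0.625), Ctla4 after carbon ions (0.602) and Havcr2 in the carbon controls (0.564). Without photon irradiated replicate 5 the log2 fold change of Cd274 was 0.10 after photons (adjusted p = 0.828 in edgeR), 0.65 for the difference of the effects (adjusted p = 0.307) and 0.42 for the mean of the effects (adjusted p = 0.142). Without photon control replicate 3, the highest control, these were 0.35, 0.40 and 0.55 (adjusted p = 0.377, 0.613 and 0.0665).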

How the results depend on the processing

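No paired analysis was possible because the labels give no replicate numbers. With each of 32 libraries left out, the count of members called ranged from 0 to 2 for the photon effect, 0 to 1 for the controls of the arms, 0 to 1 for the irradiated groups, and 0 to 0 for the carbon effect, the difference and the mean effect. DESeq2 called 2 members for the photon effect, and 1 each for the mean effect, the controls and the irradiated groups; upper-quartile scaling called 1 for the controls, the contrast's own groups or M-titled libraries 1 for the photon effect, and the T cell covariate 1 (Cd274, 0.60) for the mean effect. Over all genes, DESeq2 called 20 for the carbon effect, 1559 for the photon effect, 278 for the difference, 477 for the mean effect, 2394 for the controls and 2002 for the irradiated groups, against 0, 781, 16, 158, 1871 and 1041 in edgeR. Directions turned in these fits, as log2 values. Upper-quartile scaling: Cd86 mean effect 0.0033, Tigit irradiated groups -0.025. M-titled libraries: Ctla4 irradiated groups -0.29. T cell covariate: photon effect of Cd80 0.20, Cd86 0.079 and Il2ra 0.025, difference of Ctla4 -0.30, mean effect of Cd86 0.13 and Ido1 0.13, controls of Cd274 0.027, irradiated groups of Ctla4 -0.54. Macrophage covariate: carbon effect of Pdcd1 -0.037, photon effect of Cd80 0.063, mean effect of Cd86 0.036 and Ido1 0.019, controls of Lag3 0.0013, irradiated groups of Pdcd1 -0.042, Ctla4 -0.79 and Tigit -0.049. D-titled libraries, chosen after seeing the data: carbon effect of Pdcd1 -0.099, Ctla4 0.060, Havcr2 -0.15, Tigit -0.057 and Capg -0.082. Muscle covariate, also chosen then: photon effect of Ido1 -0.13, difference of Ido1 0.053, mean effect of Havcr2 -0.044, irradiated groups of Ctla4 -0.24. The cause was not tested. With 1 library left out, the sign turned where values lay near 0: Pdcd1 carbon effect -0.037 to 0.26, Ctla4 carbon effect -0.69 to 0.021, Ido1 carbon effect -0.37 to 0.14, Ido1 photon effect -0.046 to 0.20, Ido1 difference of effects -0.44 to 0.080, Havcr2 mean effect of both beams -0.11 to 0.11, Cd86 mean effect of both beams -0.051 to 0.020, Ido1 mean effect of both beams -0.15 to 0.10, Lag3 controls of both arms -0.11 to 0.20, Cd86 controls of both arms -0.058 to 0.075, Ctla4 irradiated groups -0.30 to 0.31, Tigit irradiated groups -0.054 to 0.12, Ido1 irradiated groups -0.081 to 0.29. Low counts limit Ctla4, Pdcd1 and Ido1, whose lowest libraries held 4, 3 and 7 counts of them.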

Other observations

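The level of some members was also set against the score of a cell type in the same library, as the difference of log2 CPM and the mean log2 CPM of the list (mean ± SD, n = 8). Cd274 relative to the macrophage score was -2.78 ± 0.35 in the carbon controls, -2.28 ± 0.56 after carbon ions, -2.58 ± 0.38 in the photon controls and -1.95 ± 0.54 after photons. Ctla4 relative to the T cell score was -0.11 ± 0.67, -0.40 ± 0.58, 0.47 ± 0.73 and -0.10 ± 0.55 in the same order, and Pdcd1 was 0.19 ± 0.58, 0.38 ± 0.30, 0.35 ± 0.45 and 0.06 ± 0.64. Tigit relative to the T cell score was 4.45 ± 0.62, 4.52 ± 0.73, 4.41 ± 0.58 and 4.70 ± 0.39. No test was run on these values, and the group means of Tigit on this scale lie within 1 SD of each other.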
